A study of Mus musculus with 17 samples.

Results

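Genes of fatty acid oxidation and of the peroxisome were followed through cultured tubular cells and aging mouse kidneys. The set held 39 genes, named by symbol and matched to Ensembl identifiers, of 53313 gene identifiers counted in all 17 libraries, and all 39 were found in every file. RNA had been sequenced from 4 cultures of non-senescent primary tubular epithelial cells (PTEC), 4 cultures of senescent PTEC, and kidneys of 3 mice each at 3, 12 and 24 months. All animals were wild type, of the strain the labels write as C57BL/6Rj, and the kidney donors were male. PTEC had been grown from collagenase-digested tubular fragments. The labels place non-senescent PTEC at day 6 without irradiation and senescent PTEC at day 16 after γ-irradiation with 10 Gray, so that irradiation and 10 more days in culture cannot be told apart. The number of mice behind the cultures is not given, so the spread between PTEC libraries may be technical in part. Each kidney library came from a part of the right kidney, in which all cell types are mixed. In such bulk RNA, fewer cells of a type and less RNA per cell cannot be told apart.

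Fatty acids are activated to acyl-CoA, carried into mitochondria as carnitine esters and shortened there in rounds of β-oxidation, whose electrons reach the respiratory chain through the electron transfer flavoprotein. Very long and branched chains are shortened first in peroxisomes. The nuclear receptor encoded by Ppara and the coactivator encoded by Ppargc1a drive many of these genes, and the orphan receptor encoded by Esrra acts with Ppargc1a on mitochondrial genes. The proximal tubule, which spends much energy on reabsorption and uses little glucose, is rich in both organelles and relies on fatty acids as fuel. The 39 genes were ordered by role into 3 regulators, 9 genes of fatty acid activation and the carnitine shuttle, 11 of mitochondrial β-oxidation, 3 of electron transfer, 11 of the peroxisome, and Pdk4 and Bdh1, which bear on the choice of fuel and on ketone bodies.

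Promoter sequences were read because nuclear receptors act on many of these genes. RefSeq promoters on GRCm38.p6 (250 bases before and 50 after the start) were found for 35 of the 39 genes and were searched on both strands. The half-site bound by many nuclear receptors, AGGTCA, occurred in 5 of the 35 genes (14.3%) and in 18.1% of 27025 genes with a promoter. A direct repeat with 1 base between, AGGNCANAGGNCA, a form of the element to which PPAR and RXR bind, occurred in Fabp1 alone, and in 0.451% of all genes. The longer site TNAAGGTCA, a form bound by estrogen-related receptors, which contains the half-site, was in none of the 35 and in 1.43% of all genes. These are matches of letters in a short window and not binding sites. The matches follow with the motif in capitals, 5′ to 3′ on the strand of the gene, so that TGACCT marks a half-site on the opposite strand. Fabp1 held it at 2 places, the first of them within the direct repeat.
Fabp1, direct repeat, chr6:71199797-71199839, plus strand, the repeat before the annotated start of the gene and its flank across it: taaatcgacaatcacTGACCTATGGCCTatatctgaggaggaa
Fabp1, second half-site, chr6:71199855-71199878, plus strand, before the RefSeq start and inside the annotated gene: ataggcaacagtgggTGACCTggc
Cpt1a, half-site, chr19:3323192-3323227, plus strand, in an intron of the longest gene model: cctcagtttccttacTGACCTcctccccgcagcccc
Acadm, half-site, chr3:153944872-153944893, minus strand, before the gene: gTGACCTtcgggctccggtgac
Acadvl, half-site, chr11:70015495-70015530, minus strand, before the gene: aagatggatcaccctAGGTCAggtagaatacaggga
Scp2, half-site, chr4:108118636-108118671, minus strand, in an intron, before an inner start: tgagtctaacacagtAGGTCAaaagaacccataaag

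Hadha and Hadhb, which encode the α and β subunits of the mitochondrial trifunctional protein, share their upstream region. Hadha lies on the minus strand of chromosome 5 (30118304 to 30155162) and Hadhb on the plus strand (30155248 to 30184593), and 85 bases separate the gene models. This stretch is printed because the genes of the pair can be compared from one shared region.
Hadha-Hadhb, chr5:30155163-30155247, plus strand: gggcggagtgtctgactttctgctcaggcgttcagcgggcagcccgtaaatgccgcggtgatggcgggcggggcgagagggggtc

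Between 26963442 and 35409144 counts per library fell on genes in PTEC and between 37311247 and 66894790 in kidneys. Levels are given as CPM, a gene's counts relative to the library's total after TMM scaling over the 17 libraries. The label calls the cultures proximal tubular cells. Of 20 proximal tubule markers, 12 reached a mean of 1 CPM in non-senescent and 7 in senescent PTEC. The transporter gene Slc34a1 lay at 0.16 to 17.5 CPM in non-senescent PTEC, against 3048 to 9402 CPM in kidneys, and the megalin gene Lrp2 at 52.0 to 422.8 CPM. Summed over the list, the markers reached 207, 216 and 281 CPM in non-senescent replicates 2, 1 and 3 and 749.6 CPM in replicate 4, which stood apart from its group. Values without it are given for Ppara, Ppargc1a, Acsm2 and the genes whose call it changed.

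Non-senescent PTEC expressed these genes far below the kidney of 3-month-old mice. The 39 genes together took 0.190% to 0.254% of the counts in the 8 PTEC libraries and 1.52% to 1.89% in the 9 kidneys. Of 38 genes tested, 38 were lower in non-senescent PTEC (adjusted p under 0.05 and absolute log2 fold change above 0.5, edgeR) and none was higher, with a median log2 fold change of −2.57. Among all 16190 genes, 32.6% were called lower and 33.0% higher. The comparison sets cultured cells of one compartment against a whole organ counted on another gene set, and these differences cannot be told apart. The identifier versions of Hadha, Acox3, Ehhadh and Bdh1 differed between these gene sets, and the part of this in their values was not tested. The proximal tubule markers were lower as well, 20 of 20, with a median of −8.12.

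**Figure D1:**
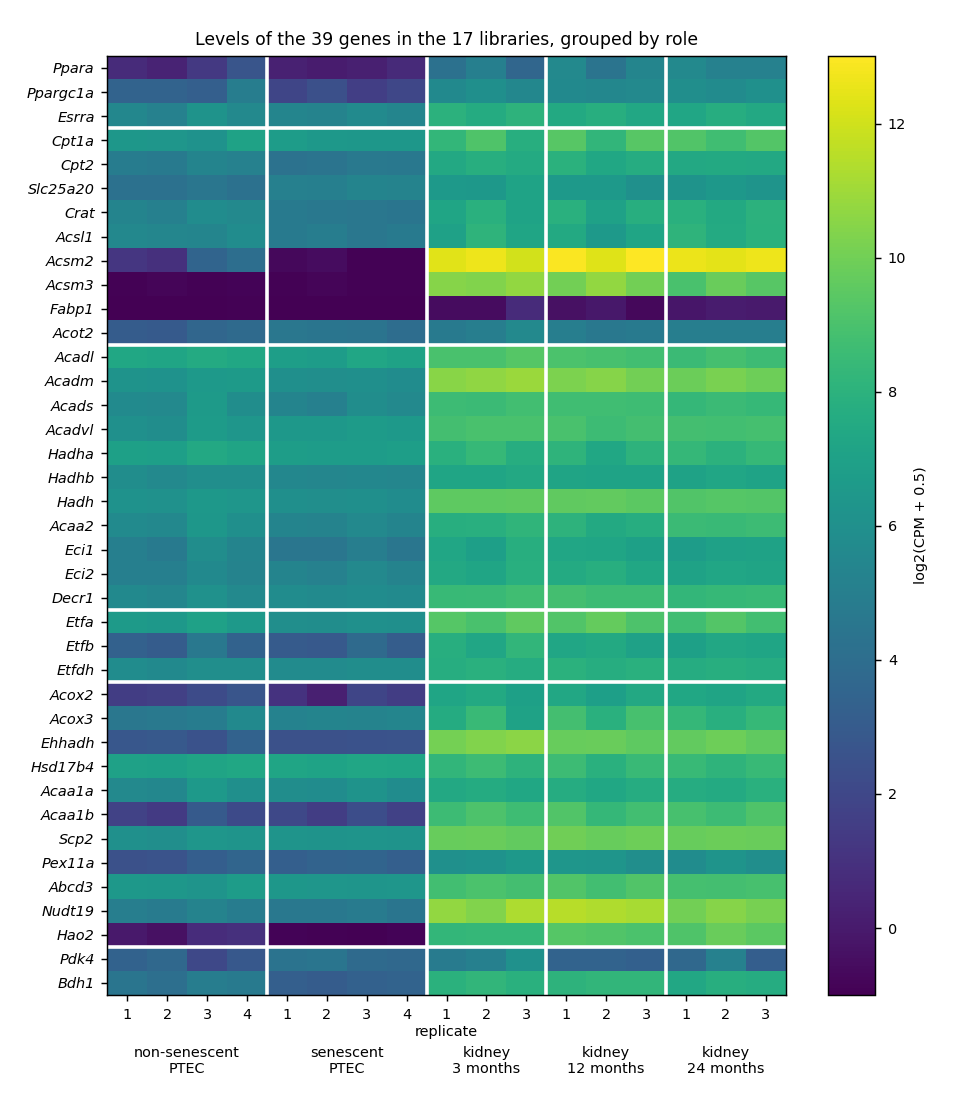
Level of each of the 39 genes (rows, grouped by role from the regulators at the top to Pdk4 and Bdh1 at the bottom) in each of the 17 libraries (columns, replicate numbers below), as log2(CPM + 0.5) in colour. The kidneys are brighter than PTEC in most rows, with the widest contrast in Acsm2 and Acsm3, and Fabp1 is dark throughout.

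The genes did not differ by one factor. The 5 largest differences were those of Acsm3, Acsm2, Hao2, Ehhadh and Acaa1b. Acsm2 and Acsm3 encode medium-chain acyl-CoA synthetases of the mitochondrion, Hao2 a peroxisomal oxidase of 2-hydroxy acids, Ehhadh the peroxisomal bifunctional enzyme and Acaa1b a peroxisomal thiolase. Acsm3 was at 1394, 1300.05 and 1729 CPM in the 3-month-old kidneys and, with 7 counts in all, at 0.0251 to 0.0784 CPM in the 4 non-senescent cultures (log2 fold change −14.76, SE 0.44). Acsm2 was at 5415, 6399 and 4220 CPM in these kidneys and at 1.86, 1.44, 10.8 and 16.3 CPM in non-senescent PTEC (−9.43, SE 0.92, and −10.12 without replicate 4). Hao2 was at 308, 319.6 and 319 CPM against 0.478, 0.261, 1.24 and 1.45 CPM (−8.50, SE 0.52). Ehhadh was at 1068, 1336 and 1523 CPM against 6.59, 7.16, 5.38 and 10.0 CPM (−7.45, SE 0.34). Acaa1b was at 394, 554 and 404 CPM against 2.92, 2.12, 7.21 and 3.85 CPM (−6.78, SE 0.43). In each of these genes every culture lay below every kidney. Acaa1b shares 32.1% of its 76-base stretches with other transcripts, chiefly of its neighbour Acaa1a, so reads of the 2 genes may be split between them.

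The smallest difference was that of Hadha, at 236, 333 and 214 CPM in the kidneys and 124, 121, 173 and 142 CPM in non-senescent PTEC (log2 fold change −0.86, SE 0.24, adjusted p = 0.0082). Its partner Hadhb differed by −1.46 (SE 0.20) and the peroxisomal multifunctional enzyme gene Hsd17b4 by −1.14 (SE 0.23). The 3 regulators were lower by −3.02 (SE 0.60) for Ppara, −2.21 (SE 0.26) for Esrra and −1.78 (SE 0.39) for Ppargc1a. Without non-senescent replicate 4, the highest culture in both, the differences were −3.90 for Ppara and −2.34 for Ppargc1a. By role, the median difference was −2.22 for activation and carnitine shuttle, −2.24 for mitochondrial β-oxidation, −2.61 for electron transfer and −3.56 for the peroxisome. In all these groups each gene tested passed the thresholds.

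The order of the genes by level per kilobase of exon differed accordingly between culture and kidney. In 3-month-old kidneys the highest levels were those of Acsm2, at 719.9 ± 147 CPM per kilobase (SD, n = 3), Nudt19, at 689.7 ± 233, Ehhadh, at 439 ± 76.7, and Acadm, at 434 ± 60.2. Nudt19 encodes a peroxisomal CoA-cleaving enzyme and Acadm the medium-chain acyl-CoA dehydrogenase. The libraries of neighbours among these 4 genes overlapped. In non-senescent PTEC the highest was Acadl, the long-chain acyl-CoA dehydrogenase gene, at 83.0 ± 8.20 CPM per kilobase (SD, n = 4), above Etfa, at 55.4 ± 10.0, and Hsd17b4, at 41.3 ± 5.07. The libraries of Acadl, Etfa and Hsd17b4 did not overlap with each other, and those of Hsd17b4 overlapped with Acaa2, the next gene. Fabp1, the liver fatty acid binding protein gene, was the lowest in kidneys of all ages, at 0.119 to 1.18 CPM, and gave 1 count in all in the 8 cultures.

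Of the other genes of these pathways, a list of 153, 143 were tested between non-senescent PTEC and 3-month-old kidneys, of which 14 were higher and 112 lower (median log2 fold change −2.15), beside 33.0% higher and 32.6% lower and a median of 0.05 among all genes. All 26 further genes of mitochondrial oxidation were lower. The 3 largest falls were in Cyp4a14, Cyp4a10 and Cyp4a31, which encode fatty acid ω-hydroxylases. Cyp4a14 gave no count in any culture and lay at 37.2, 44.5 and 439 CPM in the kidneys. The largest rises were in Uox, the urate oxidase gene (log2 fold change 6.22), Cpt1c, the neuronal form of the carnitine palmitoyltransferase (3.73), and Acsl4, an acyl-CoA synthetase with preference for arachidonate (2.54).

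The comparison of senescent with non-senescent PTEC asked how the genes differ once cells have been irradiated and left to become senescent. Of 36 genes tested, 3 passed as higher and 9 as lower in senescent PTEC, and 24 did not pass both thresholds. Slc25a20, Acot2 and Pdk4 rose, and Acsm2, Ppargc1a, Ppara, Bdh1, Crat, Acsl1, Etfa, Acaa2 and Cpt2 fell. Over all 15434 genes tested, 20.1% passed as higher and 19.7% as lower. The median log2 fold change of the 36 genes was −0.32, with 24 below 0, beside a median of −0.00 and 50.1% below 0 over all genes. Acsm3, Fabp1 and Hao2 had too few counts to be tested in this fit.

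**Figure D2:**
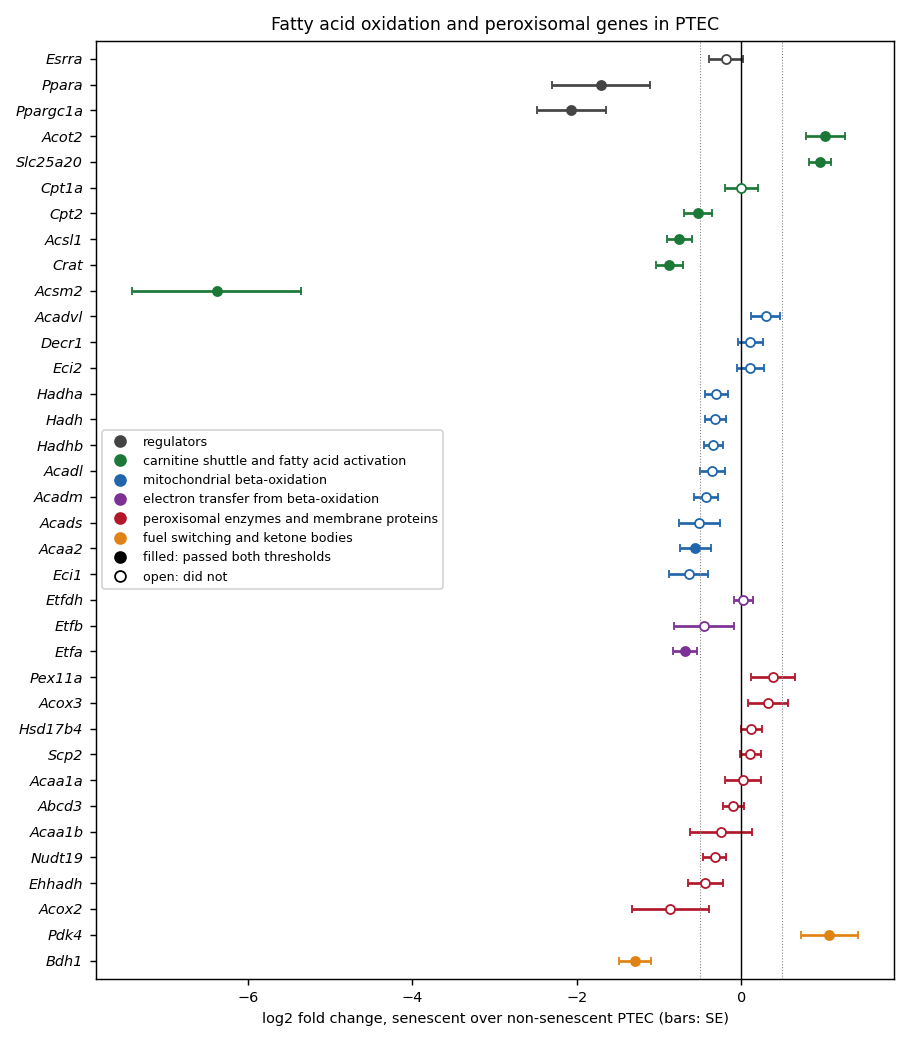
Log2 fold change of senescent over non-senescent PTEC for the 36 genes tested, ordered by role and value. Bars are standard errors (4 cultures per group), filled points passed both thresholds, and dotted lines mark a log2 fold change of 0.5 in either direction. The points of the peroxisomal group are all open, while Acsm2 lies at −6.38 and Pdk4, Acot2 and Slc25a20 near 1.

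Among the regulators, both Ppargc1a and Ppara fell, and Esrra did not pass. Ppargc1a was at 10.6, 10.3, 9.08 and 29.9 CPM in non-senescent and 3.24, 4.86, 2.51 and 3.42 CPM in senescent PTEC, with no overlap between the groups (log2 fold change −2.07, SE 0.42, adjusted p = 0.0033, edgeR). Replicate 4 of the non-senescent cultures was the highest by far, and without it the log2 fold change was −1.47 (adjusted p = 0.0018, edgeR). Ppargc1a was called in each fit with 1 library left out. Ppara was at 1.18, 0.811, 2.05 and 6.02 CPM in non-senescent and 0.728, 0.542, 0.680 and 1.07 CPM in senescent PTEC, and the groups overlapped (−1.71, SE 0.60, adjusted p = 0.0421, edgeR). Without non-senescent replicate 4 the log2 fold change of Ppara was −0.79 with an adjusted p of 0.123, and it did not pass in 6 of 8 fits that left out 1 library, those without non-senescent replicate 3 or 4 or any 1 senescent culture. Esrra was at 44.8, 35.9, 71.6 and 47.1 CPM and at 41.2, 37.4, 52.0 and 40.9 CPM (−0.18, SE 0.21, adjusted p = 0.507, edgeR), with overlapping groups. Ppargc1b, a relative of Ppargc1a outside the set, was called lower as well, by −2.64 (SE 0.29).

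Within activation and the carnitine shuttle, 2 of 7 genes tested rose and 4 fell. Slc25a20, which encodes the carnitine-acylcarnitine carrier of the inner mitochondrial membrane, was at 17.9, 17.99, 22.3 and 18.1 CPM in non-senescent and 34.1, 33.1, 39.9 and 37.6 CPM in senescent PTEC (log2 fold change 0.96, SE 0.13, adjusted p = 0.00041, edgeR). All senescent cultures lay above all non-senescent ones, and the gene was called in each fit with 1 library left out. Acot2, a mitochondrial acyl-CoA thioesterase gene, was at 7.79, 7.27, 11.8 and 13.7 CPM in non-senescent and 23.3, 21.0, 20.4 and 15.7 CPM in senescent PTEC (1.02, SE 0.23, adjusted p = 0.0066, edgeR), again without overlap. Acot2 shares 21.0% of its 76-base stretches with other transcripts, chiefly of Acot1, which differed by −0.16 (SE 0.20, adjusted p = 0.548).

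Acsm2 was at 1.86, 1.44, 10.8 and 16.3 CPM in non-senescent and 0.126, 0.181, 0.0212 and 0.0268 CPM in senescent PTEC (log2 fold change −6.38, SE 1.03, adjusted p = 0.00098, edgeR). The senescent values rest on 14 counts over 4 cultures, against 1040 counts in non-senescent PTEC, and replicates 3 and 4 of the non-senescent cultures were several times above replicates 1 and 2. Without replicate 4 the log2 fold change was −5.68 (adjusted p = 0.0024, edgeR). Crat, the carnitine acetyltransferase gene, was at 38.8, 34.3, 55.4 and 47.7 CPM against 25.6, 24.1, 22.6 and 21.5 CPM (−0.87, SE 0.17, adjusted p = 0.0026, edgeR), without overlap. Acsl1, the long-chain acyl-CoA synthetase gene, fell by 0.75 on the log2 scale (SE 0.15) and Cpt2, which releases the acyl chain from carnitine inside the mitochondrion, by 0.53 (SE 0.17). Cpt2 lay close to the fold threshold and did not pass in 5 of the 8 fits that left out 1 library, those without non-senescent replicate 3 (−0.41) or 4 (−0.48) or senescent replicate 1 (−0.46), 2 (−0.49) or 4 (−0.57). Cpt1a, the carnitine palmitoyltransferase of the outer membrane, was at 84.7, 83.0, 71.1 and 133 CPM in non-senescent and 105.9, 89.3, 84.0 and 83.9 CPM in senescent PTEC. Its log2 fold change was −0.00 (95% interval −0.39 to 0.39, adjusted p = 0.998, edgeR).

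**Figure D3:**
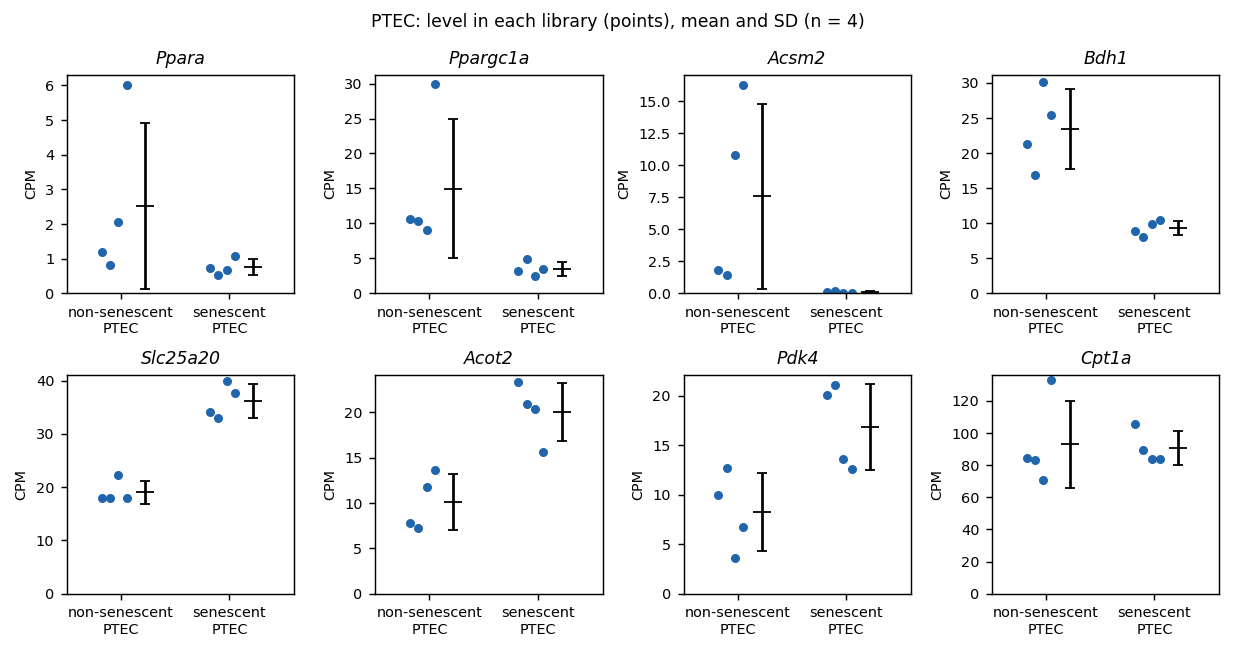
Levels of 8 genes in PTEC in CPM on linear axes from 0. Points are the 4 libraries of each group, and the dash with bars is the mean and SD. Replicate 4, the rightmost point of the non-senescent group, carries the highest values of Ppara, at 6.02 CPM, and Ppargc1a, at 29.9 CPM, while the groups of Slc25a20, Acot2 and Bdh1 do not overlap.

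Of the 11 genes of mitochondrial β-oxidation 1 fell and none rose. Acaa2, the thiolase of the last step, fell by 0.56 on the log2 scale (SE 0.19, adjusted p = 0.0386, edgeR), from 61.5 ± 16.6 to 40.8 ± 4.63 CPM (SD, n = 4 per group), and it did not pass in 5 of the 8 fits that left out 1 library, those without non-senescent replicate 3 (−0.36) or 4 (−0.54) or senescent replicate 1, 2 or 4 (−0.53 to −0.52). Acadm and Hadhb had adjusted p-values of 0.0353 and 0.0352 at log2 fold changes of −0.43 and −0.34, below the fold threshold in size. Without non-senescent replicate 2, Acadm passed as lower (−0.51, adjusted p = 0.0234, edgeR). Hadha, on the other side of the shared upstream stretch, differed by −0.31 (SE 0.14, adjusted p = 0.106). Eci1, an enoyl-CoA isomerase gene, differed by −0.64 (SE 0.24, adjusted p = 0.0509, edgeR) and was called lower in DESeq2 (−0.65, adjusted p = 0.0469) and without the filter on low counts (−0.65, adjusted p = 0.0332). The largest positive value was that of Acadvl, the very long-chain acyl-CoA dehydrogenase gene, at 0.29 (SE 0.18, adjusted p = 0.216). Exons of Acadvl overlap over 42.9% with Dvl2 on the opposite strand, which holds 19.2% of its 76-base stretches. Hadhb shares 16.6% of its stretches with other transcripts. Over the 11 genes the median was −0.34. Of the 3 genes of electron transfer, Etfa, which encodes the α subunit of the electron transfer flavoprotein, fell by 0.69 on the log2 scale (SE 0.14, adjusted p = 0.0037, edgeR), while Etfb, its β subunit, differed by −0.45 (SE 0.37) and Etfdh, which passes the electrons to ubiquinone, by 0.02 (SE 0.11). Etfb overlaps another annotated gene on the same strand over 58.2% of its exons.

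None of the 10 peroxisomal genes tested passed the thresholds in edgeR, with 1 at an unadjusted p under 0.05, and DESeq2 called none of them. With the replicate as a block, Acox2 was called lower (−0.96, adjusted p = 0.0234, edgeR). Their median log2 fold change was −0.04. The values ran from −0.86 (SE 0.47) for Acox2, the oxidase of branched chains and bile acid intermediates, to 0.38 (SE 0.27) for Pex11a, a gene of peroxisome division. Abcd3, which encodes a transporter of the peroxisomal membrane, was at 89.1 ± 12.1 CPM in non-senescent and 81.2 ± 2.12 CPM in senescent PTEC (SD, n = 4 per group), a log2 fold change of −0.10 (95% interval −0.34 to 0.15). Hsd17b4 differed by 0.12 (95% interval −0.13 to 0.37) and Scp2, which encodes a sterol carrier and thiolase, by 0.11 (95% interval −0.14 to 0.36). Scp2 shares 25.4% of its 76-base stretches with other transcripts, chiefly of Scp2-ps2. Hao2 did not reach the filter on low counts and gave 119 counts in non-senescent and 5 in senescent PTEC. Without the filter it was called lower (−4.62, adjusted p = 0.000135, edgeR), as it was in DESeq2 (−4.75) and in each of the 7 fits with 1 library left out in which it reached the filter. Without non-senescent replicate 4, Acox3 (0.65, adjusted p = 0.0041) and Pex11a (0.65, adjusted p = 0.0451) passed as higher in senescent PTEC, and without non-senescent replicate 3 Ehhadh (−0.55, adjusted p = 0.0406) passed as lower.

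Pdk4 encodes the kinase that inhibits pyruvate dehydrogenase and spares glucose. It was at 9.98, 12.7, 3.58 and 6.74 CPM in non-senescent and 20.1, 21.1, 13.6 and 12.6 CPM in senescent PTEC (log2 fold change 1.07, SE 0.35, adjusted p = 0.0321, edgeR). The groups touched at 12.7 and 12.6 CPM, and the gene did not pass in 4 of the 8 fits that left out 1 library, those without non-senescent replicate 1 (1.16) or 4 (0.99) or senescent replicate 1 (0.98) or 2 (0.94). Bdh1, which interconverts the ketone bodies, was at 21.3, 16.9, 30.1 and 25.5 CPM in non-senescent and 8.94, 8.08, 9.84 and 10.5 CPM in senescent PTEC, without overlap (−1.29, SE 0.20, adjusted p = 0.00069, edgeR).

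Same-numbered cultures deviated together, most in replicate 3 (r = 0.614), though the labels do not say that they are paired. The values above come from the fit without the replicate, and a replicate block was an alternative. Replicate 3 of both groups also had a negative trend on exon length, and its part in this correlation was not tested. With the replicate as a block, 3 genes were up-regulated and 11 down-regulated, the further 2 being Eci1 (−0.60, adjusted p = 0.0050) and Acox2 (−0.96, adjusted p = 0.0234). That fit called 23.2% of all genes higher and 21.3% lower. Beside the calls without the block, with 20.1% of all genes higher and 19.7% lower, 7 of 10 proximal tubule markers tested fell, among them Hnf4a by 2.98 on the log2 scale, and 7 of 9 fibroblast and pericyte markers rose. Of the other lists, 5 of 6 loop of Henle markers and 3 of 7 leukocyte markers fell, while 5 of 14 circadian clock genes rose and 1 fell. Further, 3 of 10 immediate early and heat shock genes rose, 2 of 5 distal tubule and collecting duct markers fell and 1 rose, 1 of 8 endothelial markers fell, and 1 of 4 muscle markers rose. The summed fibroblast markers lay at 67.4 to 136.8 CPM in non-senescent and 473 to 998 CPM in senescent PTEC, and 8 of 8 proliferation genes fell. The summed proximal tubule markers lay at 207 to 749.6 CPM and 144 to 282 CPM. Single genes weighed heavily in both sums. With TMM scaling over PTEC alone, Acta2 had a mean of 60.8 CPM in non-senescent and 693 CPM in senescent PTEC. Lrp2, which did not pass, had means of 204.5 and 226.5 CPM. The part of these marker lists in the values of the fatty acid oxidation genes was not tested.

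In the wider list, 131 genes were tested between senescent and non-senescent PTEC, of which 14 rose and 38 fell (median log2 fold change −0.11), beside 20.1% higher and 19.7% lower and a median of −0.00 among all genes. The largest falls were in Dao (−6.05) and Pipox (−4.48), peroxisomal oxidases of D-amino acids and of sarcosine and pipecolate, and in Acss1 (−3.79), a mitochondrial acetyl-CoA synthetase gene. The largest rises were in Cyp4a12a (3.39), which reached only 0.72 to 1.44 CPM in senescent PTEC, Ddo (2.25), the D-aspartate oxidase gene, and Acss3 (2.08), an acyl-CoA synthetase gene for short chains. By role, 12 of 29 further genes of uptake and activation fell and 4 rose, and 10 of 33 further peroxisomal enzymes fell and 3 rose. Of 15 peroxins, which build the organelle, 1 fell and none rose.

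In aging kidneys few of the 39 genes passed the thresholds. Between 24 and 3 months Hao2 was up-regulated and no gene was down-regulated (39 tested, edgeR; 12 had an unadjusted p under 0.05, and DESeq2 called 3 lower). Over all 17067 genes, 1.89% passed as higher and 0.451% as lower, and in DESeq2 2.42% and 1.03% of 30029 genes. Between 12 and 3 months Hao2 was again the single gene up-regulated and none was down-regulated (4 at an unadjusted p under 0.05, and 2 lower in DESeq2), beside 1.22% higher and 1.36% lower among all genes in edgeR and 1.77% and 1.92% in DESeq2. Between 24 and 12 months none passed in either direction (7 at an unadjusted p under 0.05, and 1 higher and 2 lower in DESeq2), beside 0.896% higher and 0.434% lower among all genes in edgeR and 1.64% and 0.952% in DESeq2. With the replicate as a block and these ages alone, 2 genes passed as higher and 3 as lower, beside 7.77% and 5.41% of all genes. With the block and all 3 ages none passed. The edgeR shares without a block moved when 1 kidney was left out. At 24 against 3 months they lay between 0.298% and 2.62% higher and between 0.126% and 1.90% lower. At 12 against 3 months the ranges were 0.177% to 1.42% higher and 0.120% to 2.66% lower. For 24 against 12 months they were 0% to 0.315% higher and 0.00570% to 0.0458% lower. The median log2 fold changes of the 39 genes were −0.17, −0.02 and −0.07 in this order. No share of all genes at an unadjusted p under 0.05 is given, so no excess can be read from those counts. The comparisons share their samples in pairs, so they are not independent. The 3-month-old kidneys were counted on another gene set than the older ones, and a difference from this source and one from age cannot be told apart. The identifier versions of Esrra, Cpt1a, Acaa2 and Eci1 differed between these gene sets.

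Hao2 was at 308, 319.6 and 319 CPM at 3 months, 628, 585 and 525 CPM at 12 months and 575, 893 and 727 CPM at 24 months. All older kidneys lay above all 3-month-old kidneys, and the older ages overlapped. The log2 fold change was 1.19 at 24 months (SE 0.17, adjusted p = 0.0121, edgeR) and 0.86 at 12 months (SE 0.17, adjusted p = 0.0396, edgeR) against 3 months, and 0.33 between 24 and 12 months (SE 0.17, adjusted p = 0.396, edgeR). At 24 months it passed in 5 of 6 fits that left out 1 library, the exception being the fit without 3-month replicate 1 (1.18, adjusted p = 0.0823). At 12 months it passed in none of the 6, at log2 fold changes of 0.81 to 0.92. In PTEC the gene lay near 0, as given above.

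**Figure D4:**
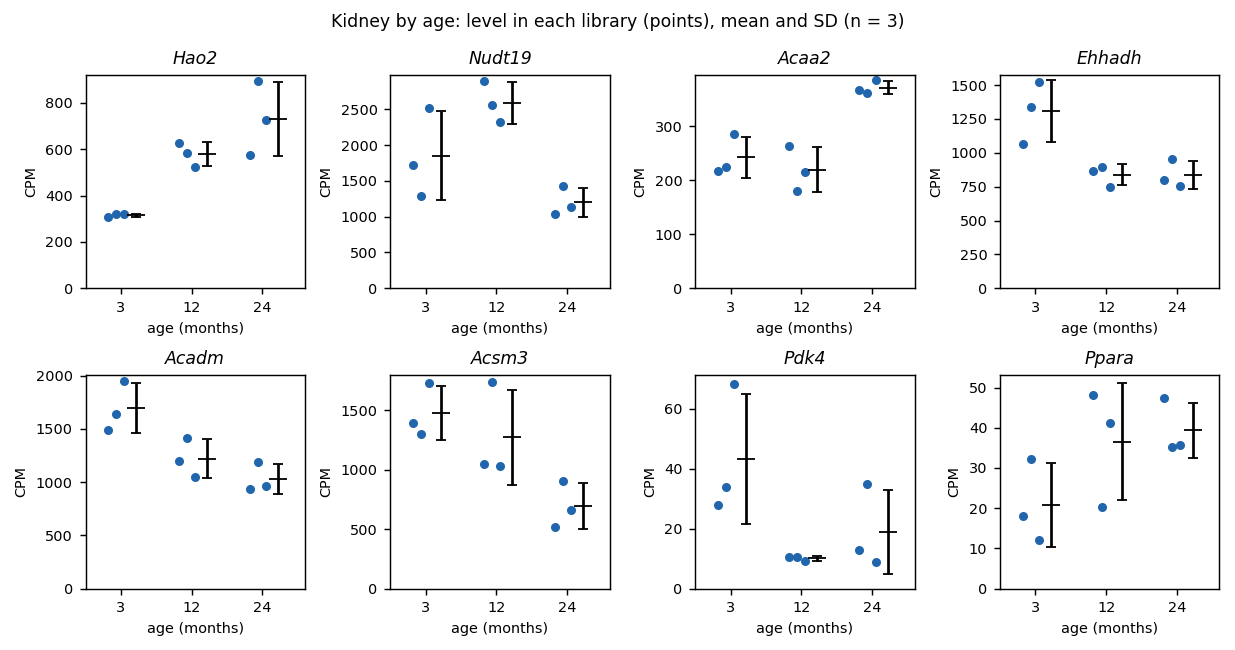
Levels of 8 genes in kidneys at 3, 12 and 24 months in CPM on linear axes from 0. Points are the 3 kidneys of each age, and the dash with bars is the mean and SD. The points of Hao2 at 12 and 24 months all lie above 319.6 CPM, the highest value at 3 months, those of Acaa2 at 24 months lie apart from both younger ages, and Pdk4 spreads widely at 3 and 24 months.

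The regulators and Cpt1a passed in no comparison of ages. Ppara was at 18.02, 32.3 and 12.0 CPM at 3 months, 48.2, 20.2 and 41.3 CPM at 12 months and 47.3, 35.1 and 35.7 CPM at 24 months (24 against 3 months 0.90, SE 0.39, adjusted p = 0.268, edgeR). Ppargc1a was at 50.6, 63.7 and 43.7 CPM, then 49.5, 44.8 and 47.5 CPM, then 59.3, 54.7 and 64.5 CPM (0.15, SE 0.16, adjusted p = 0.572). Esrra was at 252, 193 and 265 CPM, then 184, 217 and 170 CPM, then 154, 212 and 178 CPM (−0.41, SE 0.19, adjusted p = 0.286). Cpt1a was at 307, 573 and 218 CPM, then 652, 302 and 670 CPM, then 600.2, 425 and 623 CPM (0.57, SE 0.39, adjusted p = 0.433). The 24-month-old kidneys lay above all 3-month-old ones in Ppara, while the 12-month-old ones overlapped with both ages. In Ppargc1a, Esrra and Cpt1a the ranges at 3 and 24 months overlapped.

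Other genes came near the threshold and are named after their values were seen. Acadm was at 1493, 1645 and 1956 CPM at 3 months and 931, 1191 and 963 CPM at 24 months, without overlap (log2 fold change −0.75, SE 0.18, adjusted p = 0.0691, edgeR). Acsm3 was at 1394, 1300.05 and 1729 CPM and 518, 905 and 659 CPM (−1.11, SE 0.28, adjusted p = 0.0785, edgeR), also without overlap. Ehhadh differed from 3 months by −0.66 at 12 months (adjusted p = 0.0831) and −0.67 at 24 months (adjusted p = 0.0901, edgeR), from a mean of 1309 CPM at 3 months. DESeq2 called Acadm, Acsm3 and Ehhadh at 24 months, and Ehhadh and Pdk4 at 12 months. Exons of Acsm3 overlap with Eri2 on the opposite strand, and 30.8% of its 76-base stretches are shared with other transcripts.

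Nudt19 was at 1727, 1295 and 2523 CPM at 3 months, 2889, 2552 and 2315 CPM at 12 months and 1037, 1429 and 1127 CPM at 24 months. All 12-month-old kidneys lay above all 24-month-old kidneys, and the 3-month-old ones overlapped with both (24 against 12 months −1.11, SE 0.25, adjusted p = 0.0702, edgeR). Exons of Nudt19 overlap over 35.0% with B230322F03Rik on the opposite strand, which holds 32.7% of its 76-base stretches. Acaa2 was at 217, 226 and 286 CPM, then 263, 180 and 216 CPM, then 368, 362 and 386 CPM, with 24 months above all others (24 against 12 months 0.76, SE 0.17, adjusted p = 0.0761, edgeR). Same-numbered kidneys of 12 and 24 months deviated together (r = 0.384, 0.557 and 0.172), and with the replicate as a block and these ages alone, 2 genes were up-regulated (Acaa2 and Acsl1) and 3 down-regulated (Nudt19, Acsm3 and Bdh1). That fit called 7.77% of all genes higher and 5.41% lower. With the block and all 3 ages, none of the 17067 genes passed in edgeR. The kidneys of these ages came from different mice that the labels do not pair, so the block rests on these correlations alone. Replicate 2 of both ages also had a negative correlation of its deviations with exon length (−0.37 and −0.41). The part of such trends in the deviation together was not tested.

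Pdk4 was at 27.8, 33.8 and 68.1 CPM at 3 months, 10.6, 10.7 and 9.19 CPM at 12 months and 12.9, 34.9 and 8.72 CPM at 24 months. The 12-month-old kidneys lay below all 3-month-old ones (log2 fold change −2.11, SE 0.52, adjusted p = 0.0722, edgeR). The summed adipocyte markers were 189.8, 57.0 and 533 CPM at 3 months, 82.1, 215.5 and 71.7 CPM at 12 months and 77.4, 75.0 and 282 CPM at 24 months, and the kidney highest in Pdk4, 3-month replicate 3, was the highest in these markers. At 24 months the order was the opposite, with replicate 2 the highest in Pdk4 and the lowest in the markers, and replicate 3 the lowest in Pdk4 and the highest in the markers. At 12 months replicate 2 was the highest and replicate 3 the lowest in both, within a narrow range of Pdk4. The part of adipose tissue in the level of Pdk4 was not tested. Of 20 proximal tubule markers 4 were higher at 24 than at 3 months, as were 3 of 12 leukocyte markers and 3 of 8 proliferation markers, beside 1.89% of all genes. No marker of these lists was lower. Of the proximal tubule markers 15 had positive and 5 negative log2 fold changes at 24 against 3 months. Their sum lay at 62612 to 63780 CPM at 3 months, 66346 to 72080 CPM at 12 months and 54956 to 61659 CPM at 24 months. By this sum each 24-month-old kidney lay below each 3-month-old one. All 12 leukocyte markers had positive log2 fold changes, and their sum lay at 115.8 to 163.5 CPM at 3 months. The sum was 212 to 290 CPM at 12 months and 318, 666 and 328 CPM at 24 months, with replicate 2 the highest. At 12 against 3 months 1 proximal tubule and 1 leukocyte marker were higher, 1 distal tubule and 1 muscle marker were lower, and of 14 circadian clock genes 2 were higher and 1 lower, beside 1.22% and 1.36% of all genes. At 24 against 12 months 3 of 8 proliferation and 1 of 20 proximal tubule markers were higher, beside 0.896% of all genes, and no marker was lower. That share fell when 1 of these kidneys was left out, as given above. The summed clock genes lay at 433 to 565 CPM at 3 months, 745 to 899.6 CPM at 12 months and 549.9 to 642 CPM at 24 months. Immediate early and heat shock genes, which can respond to handling of tissue, summed to 358, 173 and 348 CPM at 3 months, 110.7, 98.3 and 120.2 CPM at 12 months and 1290.15, 421 and 204 CPM at 24 months, with 24-month replicate 1 the highest. Of the 10 genes 3 were lower at 12 than at 3 months, beside 1.36% of all genes, and Fos was higher at 24 months than at either younger age. The part of all these marker lists in the values of the 39 genes was not tested.

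In several kidneys the 39 genes deviated together by their length. Across genes, the deviation of a library from its age mean went with exon length at a Spearman correlation of −0.56 in 3-month replicate 3, −0.41 in 24-month replicate 2 and −0.37 in 12-month replicate 2, and of 0.54 in 3-month replicate 2, 0.51 in 12-month replicate 3 and 0.47 in 24-month replicate 1 (39 genes each). It was weaker in 24-month replicate 3 (0.23), 12-month replicate 1 (0.09) and 3-month replicate 1 (0.05). Over all 17067 genes these correlations ran from −0.39 to 0.38. Etfb, with 1164 bases of exon, was at 223, 156 and 304 CPM in the 3-month-old kidneys, while Acox3, with 11521 bases, was at 194, 358 and 136 CPM. The library highest in one was lowest in the other. In PTEC the third replicate of both groups had a negative correlation (−0.41 and −0.62, 36 genes), and the other 6 cultures ran from 0.08 to 0.45. Genes are not independent replicates, and what these libraries share was not tested. With the trend on length removed, the numbers of genes called were 3 up-regulated and 9 down-regulated in senescent PTEC, with Eci1 (−0.61, adjusted p = 0.0118, edgeR) in place of Acaa2 (−0.44, below the fold threshold in size).

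**Figure D5:**
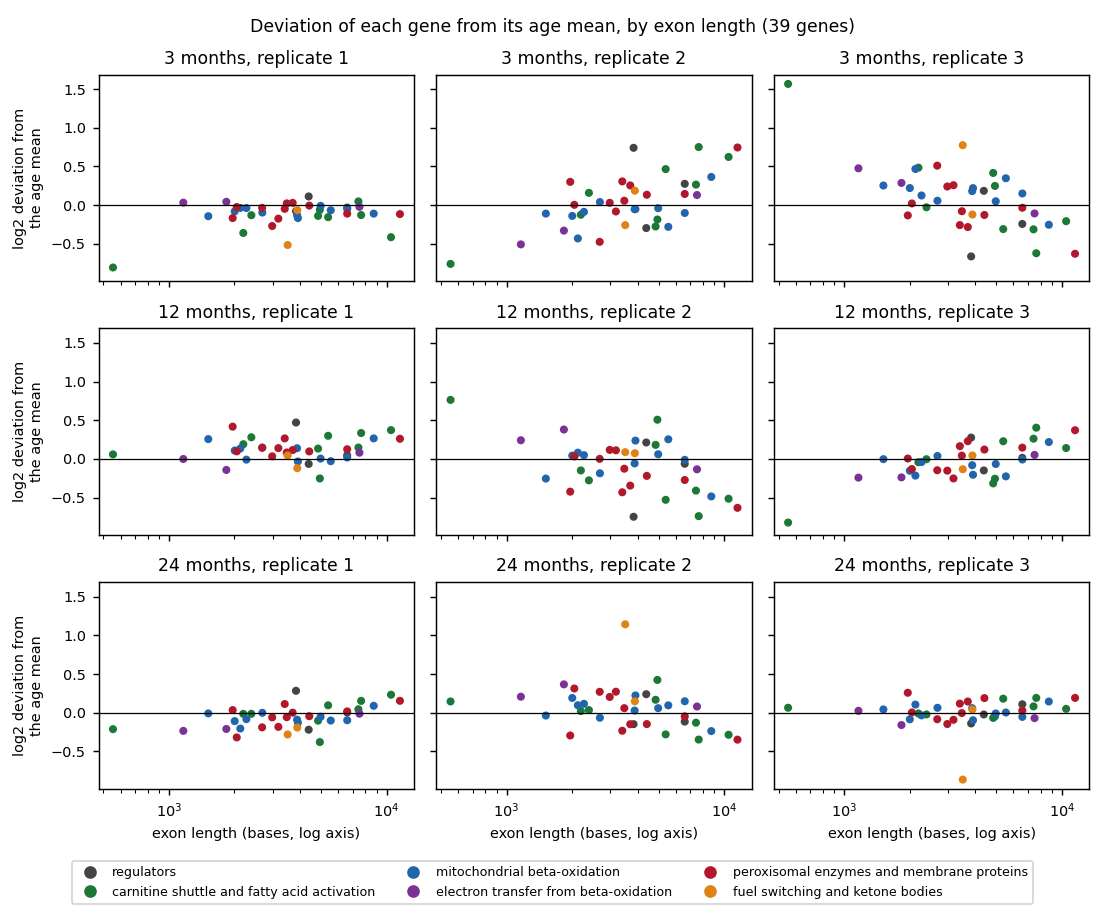
Deviation of each of the 39 genes from its mean over the 3 kidneys of an age (vertical axis, log2) against its exon length in bases (log axis), for each of the 9 kidneys, coloured by role. The points fall with length in 3-month replicate 3 (Spearman −0.56) and rise with it in 3-month replicate 2 (0.54).

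Among the 153 other genes of the pathways, 147 were tested in kidneys. Between 24 and 3 months 2 rose and 3 fell, beside 1.89% higher and 0.451% lower among all genes. Cyp4a12a (2.31) and Cyp4a12b (2.24), both ω-hydroxylase genes, rose, and Crot, the peroxisomal carnitine octanoyltransferase gene (−0.98), Lpl, the lipoprotein lipase gene (−0.89), and Cd36, a fatty acid translocase gene (−0.62), fell. Between 12 and 3 months Cyp4a12a (2.23) and Agps (0.68), a gene of ether lipid synthesis, rose and Lpl (−0.83) fell, beside 1.22% and 1.36% among all genes. Between 24 and 12 months Cyp4a12b (1.87) rose and 5 genes fell, 4 of them among 34 peroxisomal enzymes, with Agps (−0.92), Acot12 (−0.88) and Pxmp2 (−0.81) the largest, beside 0.896% higher and 0.434% lower among all genes. These last calls rest on all 6 kidneys, since leaving out 1 of them left 1 gene called lower of all genes in 5 of the 6 fits and 8 in the fit without 24-month replicate 3. Lpl was at 1799, 2476 and 2159 CPM at 3 months and between 1027 and 1393 CPM in all 6 older kidneys.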

How the data were processed

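Libraries of enriched mRNA from 8 PTEC cultures and 9 mouse kidneys had been sequenced by the authors. The study's supplement describes stranded poly(A) libraries, paired reads of 76 bases and nf-core/rnaseq for a pool of 9 libraries. It does not name these libraries or describe a further pool. The deposited values are raw counts per gene, without normalization. The submitters' processing notes name GRCm38, and the study's methods name GENCODE release M18 for the annotation. The library kit keeps the strand, but the aligner, the counter and its strand setting are not given in the sources used here, so whether overlapping genes on opposite strands share reads is not known. PTEC, 3-month-old and older kidneys were counted on gene sets of 53715, 54146 and 55401 identifiers, and the 53313 shared ones were matched without version. Symbols, positions and exon lengths came from GENCODE M21, and promoters from RefSeq (GRCm38.p6).

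The counts were used as deposited, with edgeR 4.0.16 and, as an alternative, DESeq2 1.42.0, both in R 4.3.3 (limma 3.58.1). Sequences and plots were made in Python 3.11.15 (pandas 2.3.3, matplotlib 3.10.9). The main test was the quasi-likelihood test of edgeR (TMM, filterByExpr, robust, Benjamini-Hochberg over all genes tested). A call needed an adjusted p below 0.05 together with a log2 fold change beyond 0.5 in size, as in the study. Separate fits were made for PTEC and kidneys, the latter with a common spread for all ages. Intervals of 95% are the log2 fold change ± 1.96 SE. CPM per kilobase used the length of the union of exons.

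The 39 genes and the wider and marker lists were chosen with earlier results of these data known. Library values are given for the regulators, Cpt1a and up to 5 called genes with the largest rise and fall per comparison, and up to 3 each of the wider list. Same-numbered cultures deviated together (r from 0.186 to 0.614 over 4 pairs), as did kidneys of 12 and 24 months. The labels give replicate numbers but no pairing, and kidneys of different ages came from different mice. The replicate block therefore rests on these correlations in the same data, without a comparison with differently numbered libraries. It was an alternative and not part of the main test. Replicate 2 of both these ages and replicate 3 of both culture groups also had a negative trend on exon length. The part of these trends in the correlations was not tested. Between 3 months and the older ages r was from −0.70 to −0.03, and no pairing was assumed. The method was tested on simulated data, but the outcome is not given here and no value above rests on it. Alternatives were other scaling, filter, tool, fold thresholds, a replicate block, the compared ages alone and each library left out. A fit with a trend on exon length removed from each library, and a block with ages 12 and 24 months alone, were added after seeing the data.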

Additional observations from a re-analysis of the deposited data

Results flagged for a closer look

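In groups of 4 cultures, 77 sets of values were examined for a culture far from the other 3, and 8 were found. Chance gives about 1 in 20 for independent sets, while these sets share their libraries and those of Fabp1 and Acsm3 rest on a few counts. In non-senescent PTEC, replicate 4 lay at 29.92 CPM of Ppargc1a, with the others at 9.08 to 10.6 CPM. Replicate 4 also gave the single count of Fabp1, at 0.02893 CPM, with the others at 0. Replicate 3 lay at 22.3 CPM of Slc25a20, with the others at 17.9 to 18.1 CPM, and at 24.07 CPM of Etfb, with the others at 7.97 to 10.0 CPM. In senescent PTEC, replicate 3 lay at 47.69 CPM of Acaa2, against 37.7 to 38.9 CPM, at 31.78 CPM of Eci1, against 21.8 to 22.4 CPM, and at 72.01 CPM of Acaa1a, against 56.1 to 57.6 CPM. Replicate 2 lay at 0.07748 CPM of Acsm3, against 0.0212 to 0.0268 CPM, which is 3 counts against 1 in each other culture. Replicate 3 of both groups also had the negative trend on exon length described for PTEC, and its part in these values was not tested.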

How the results depend on the processing

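Over the settings tried, the median log2 fold change of the genes lay between −0.40 and −0.19 in senescent PTEC, −2.74 and −2.47 in non-senescent PTEC against 3-month-old kidneys, −0.24 and −0.12 at 24 against 3 months, −0.15 and −0.02 at 24 against 12 months, and −0.10 and 0.02 at 12 against 3 months, and no called value reversed. In senescent PTEC, a log2 fold threshold of 1 left 2 genes up-regulated, without Slc25a20, and 4 down-regulated. Leaving out 1 culture in turn gave 2 to 4 up-regulated and 7 to 12 down-regulated genes, counting Hao2, which reached the filter on low counts in 7 of these 8 fits and was called lower in each of the 7. For 24 against 3 months, DESeq2 called 3 genes down-regulated, and the replicate block left 0 up-regulated, with Hao2 at an adjusted p of 0.0550, although no pairing was assumed there. Leaving out 1 kidney gave 0 to 1 up-regulated. For 12 against 3 months, 0 genes were up-regulated without the filter on low counts, at a log2 fold threshold of 1, with the replicate block, with the compared ages alone, and in every fit that left out 1 kidney (0 to 0), while DESeq2 called 2 down-regulated. For 24 against 12 months, DESeq2 called 1 up-regulated and 2 down-regulated. In this comparison 1 gene, Nudt19, was down-regulated without the filter, with the compared ages alone and with the length trend removed. The replicate block with the compared ages alone gave 2 and 3. The cause of these shifts was not tested. For single genes, 2269 values stayed on their side of the thresholds, 28 newly passed and 32 no longer passed. In DESeq2, which kept 30570 genes in PTEC, the median of all genes was 0.11. In a fit with 1 kidney left out, the age with 2 kidneys shares the spread of the others. Low counts limit Acsm3, Fabp1 and Hao2 in PTEC.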
